A study of Homo sapiens with 12 samples.

Results

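The 9 genes described here encode the class I histone deacetylases HDAC1, HDAC2, HDAC3 and HDAC8 and the corepressors RCOR1, SIN3A, SIN3B, NCOR1 and MTA1. They were taken by gene name from the 58302 genes that each deposited table lists, and all 9 were present in both tables and passed the filter on low counts in every comparison. The study measured polyadenylated RNA in the human non-small-cell lung cancer lines H1703 and H1299, 3 libraries for each of 4 groups: H1703 with SAHA, H1703 with DMSO, H1299 with SAHA and H1299 with DMSO. SAHA (vorinostat) is a hydroxamate that inhibits zinc-dependent histone deacetylases, the class I enzymes among them, and DMSO at 0.1% was its vehicle. Exposure lasted 24 h. The labels list SAHA at 2.5, 10 and 40 µM without saying which dose the sequenced cells received, so no value below belongs to a stated dose. Nor do they say whether both lines received the same dose. Where SAHA effects are compared between the lines, line and dose therefore cannot be told apart. The labels mention no genetic change in either line. They do not state whether replicates are separate cultures, and the p-values then cover only the spread among these libraries, which may be technical.

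Class I deacetylases remove acetyl groups from histone tails and other proteins and are mostly nuclear. They rarely act alone. HDAC1 and HDAC2 are close paralogues that sit as catalytic subunits in the SIN3, NuRD, CoREST and MiDAC complexes, whereas HDAC3 is the enzyme of the NCoR complex and is switched on by binding to its scaffold, such as NCOR1. HDAC8 works without such a scaffold and deacetylates the cohesin subunit SMC3. SIN3A and SIN3B are alternative scaffolds of the SIN3 complex, MTA1 is a scaffold of NuRD, the complex that joins deacetylation to nucleosome remodelling, and RCOR1 (CoREST) links HDAC1 or HDAC2 to the histone demethylase KDM1A.

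The total count per library ran from 14.4M to 19.4M. Mitochondrially encoded genes took 8.77 to 10.9% of the counts in H1703 with SAHA and 5.44 to 6.27% in H1703 with DMSO, against 4.0 to 4.23% in H1299 with SAHA and 1.96 to 2.22% in H1299 with DMSO; leaving these genes out is one of the alternatives reported at the end. The summed level of 6 proliferation genes was 402 to 408 CPM in H1703 with SAHA against 1784 to 1821 CPM with DMSO, and 474 to 618 CPM in H1299 with SAHA against 1645 to 1904 CPM with DMSO. The labels call both lines epithelial. KRT8 averaged 1232 CPM and CDH1 92.4 CPM in H1703 with DMSO, while in H1299 with DMSO KRT8 averaged 210.1 CPM and CDH1 had 0 counts in all 3 libraries. Of the other epithelial markers under DMSO, KRT18 averaged 689.5 CPM in H1703 and 383 CPM in H1299. KRT19 averaged 15.9 CPM in H1703 and 0.0202 CPM in H1299, and EPCAM 2.81 and 0.236 CPM. The 5 leukocyte markers summed to 24.6 to 43.2 CPM in H1703 with SAHA against 13.1 to 28.6 CPM with DMSO, and to at most 1.01 CPM in any H1299 library, with CD3E at 0 in both DMSO groups. Most of the H1703 sum was CD14, which averaged 32.9 CPM with SAHA and 22.5 CPM with DMSO. LYZ averaged 2.05 CPM in H1703 with SAHA and 0.0638 CPM with DMSO. PTPRC, CD3E and CD79A averaged at most 0.371 CPM in either H1703 group. Endothelial markers, 3 in number, reached 3.26 to 4.27 CPM in H1703 with SAHA against 0.275 to 0.511 CPM with DMSO and 4.60 to 5.97 CPM in H1299 with SAHA against 0.679 to 0.768 CPM with DMSO. The 3 fibroblast markers summed to 112 to 125 CPM in H1703 with SAHA against 62.5 to 72.1 CPM with DMSO, and to 33.2 to 46.1 CPM in H1299 with SAHA against 1.06 to 2.15 CPM with DMSO. In H1703, LUM averaged 51.4 CPM with SAHA and 4.97 CPM with DMSO, while COL1A1 averaged 64.8 and 63.5 CPM. DCN averaged 1.33 CPM in H1703 with SAHA and 0.0688 CPM with DMSO. In H1299, COL1A1 averaged 38.3 CPM with SAHA and 1.35 CPM with DMSO, and DCN and LUM at most 0.368 CPM. What part these markers have in the results below was not tested.

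Positions are those of the deposited tables, on GRCh38 per the submitters' processing notes. HDAC1 (ENSG00000116478) lies at chr1:32292086-32333635 on the plus strand, HDAC2 (ENSG00000196591) at chr6:113933028-114011308 on the minus strand, HDAC3 (ENSG00000171720) at chr5:141620876-141636870 on the minus strand and HDAC8 (ENSG00000147099) at chrX:72329516-72573103 on the minus strand. RCOR1 (ENSG00000089902) occupies chr14:102592661-102730576 and MTA1 (ENSG00000182979) chr14:105419820-105470729, both on the plus strand of the same chromosome. SIN3A (ENSG00000169375) is at chr15:75369379-75455842 on the minus strand, SIN3B (ENSG00000127511) at chr19:16829400-16880353 on the plus strand and NCOR1 (ENSG00000141027) at chr17:16029157-16218185 on the minus strand. The labels contradict themselves on strand, so reads of overlapping genes may be shared. NCOR1 overlaps PIGL and TTC19, whose own counts reached 741, against 1102 to 3276 for NCOR1. The genes that overlap the other members had at most 44 counts in any library, and HDAC1 overlaps none. Pseudogenes named for HDAC1 or NCOR1 had at most 5 counts.

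The 250 bases upstream of the RefSeq start are shown for 5 members that the results turn on: the paralogues HDAC1 and HDAC2, whose levels ran in parallel across the 4 groups, HDAC3, which rose, and MTA1 and NCOR1, which fell. All 9 members matched RefSeq's promoter table (GRCh38.p14), with 11 entries in all. Capitals mark the GC box GGGCGG and its reverse complement CCGCCC. The windows are chr1:32291833-32292082 for HDAC1, chr6:113971149-113971398 for HDAC2, chr5:141636850-141637099 for HDAC3, chr14:105419577-105419826 for MTA1 and chr17:16215535-16215784, the first of 2 entries, for NCOR1; each is written 5′ to 3′ on the strand of its gene.
HDAC1: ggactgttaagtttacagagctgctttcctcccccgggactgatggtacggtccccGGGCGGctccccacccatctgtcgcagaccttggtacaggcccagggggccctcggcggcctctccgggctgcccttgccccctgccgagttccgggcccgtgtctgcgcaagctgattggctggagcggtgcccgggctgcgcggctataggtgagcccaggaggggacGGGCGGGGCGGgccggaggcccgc
HDAC2: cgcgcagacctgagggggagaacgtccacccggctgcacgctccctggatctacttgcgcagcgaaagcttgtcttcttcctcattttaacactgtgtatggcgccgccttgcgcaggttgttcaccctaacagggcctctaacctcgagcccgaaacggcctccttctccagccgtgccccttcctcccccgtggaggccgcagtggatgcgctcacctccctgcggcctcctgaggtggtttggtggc
HDAC3: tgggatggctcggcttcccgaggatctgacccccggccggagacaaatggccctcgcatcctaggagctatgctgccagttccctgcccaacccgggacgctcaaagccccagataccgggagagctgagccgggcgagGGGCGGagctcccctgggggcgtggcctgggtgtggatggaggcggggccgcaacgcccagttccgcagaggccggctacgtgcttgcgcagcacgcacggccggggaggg
MTA1: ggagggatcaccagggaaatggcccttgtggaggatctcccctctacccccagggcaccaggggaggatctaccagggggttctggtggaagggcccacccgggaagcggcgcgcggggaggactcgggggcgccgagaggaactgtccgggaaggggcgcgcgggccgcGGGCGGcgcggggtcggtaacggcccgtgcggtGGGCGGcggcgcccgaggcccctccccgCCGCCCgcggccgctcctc
NCOR1: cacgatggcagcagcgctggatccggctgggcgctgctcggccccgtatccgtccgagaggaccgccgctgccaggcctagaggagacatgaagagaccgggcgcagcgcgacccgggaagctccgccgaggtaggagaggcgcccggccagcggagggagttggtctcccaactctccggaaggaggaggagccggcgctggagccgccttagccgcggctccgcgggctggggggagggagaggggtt

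The HDAC1 window held 3 GC boxes, of which 2 near its end overlap by 1 base, and the HDAC2 window held 0. HDAC3 had 1, MTA1 had 3 and NCOR1 had 0. Of the 34943 windows of this length in the table, 42.5% held at least 1. The ETS core CCGGAAG (or CTTCCGG) was found once in the NCOR1 window, among 8.48% of all windows that hold it, and in no other member's window. The E-box CACGTG was found in none of the 11 member windows, against 6.32% of all windows. The motifs were searched on both strands; a match is a description of letters only. The GC content was 71.6% for HDAC1, 63.2% for HDAC2, 70.8% for HDAC3, 76.8% for MTA1 and 72.4% for NCOR1, against a median of 58.0% over all windows. Of the windows not shown, RCOR1 had 76.4%, the SIN3A entries 62.0% and 63.6%, HDAC8 48.0%, SIN3B 42.8% and the second NCOR1 entry 23.6%.

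Under SAHA, HDAC3 rose in H1703, NCOR1 and MTA1 fell in both lines, SIN3B rose in both lines, and HDAC1 and HDAC2 did not pass the test in either line. Levels are given as TMM-scaled CPM (counts scaled to a common library size), one value per library; changes are log2 differences ± SE, SAHA minus DMSO, from the quasi-likelihood test of edgeR, 3 libraries a side, and a gene was called at a Benjamini-Hochberg adjusted p below 0.05 over all genes tested. In H1703, 5 of the 9 members were called, 3 higher (HDAC3, RCOR1 and SIN3B) and 2 lower (NCOR1 and MTA1), where 67.4% of all 17273 genes tested were called. In H1299, 5 of 9 were called, 1 higher (SIN3B) and 4 lower (HDAC8, SIN3A, NCOR1 and MTA1), where 63.8% of 17277 genes were. The count of called members is thus near, and no higher than, that over all genes. The median log2 difference over the members was -0.04 in H1703 and -0.18 in H1299, against 0.02 over all genes in each line. Sizes were modest: the median absolute log2 difference of the members was 0.26 in H1703 against 0.69 over all genes, and 0.40 in H1299 against 0.62 over all genes. In each line only 1 called member changed 2-fold or more, HDAC3 in H1703, where 34.4% of all genes did, and MTA1 in H1299, where 30.4% did. The values over all genes, here and below, include genes of much lower level. Every member had at least 286 counts in each library, and no comparison with genes of like level was made. In bulk RNA, fewer cells that express a gene and less RNA per cell cannot be told apart.

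**Figure D1:**
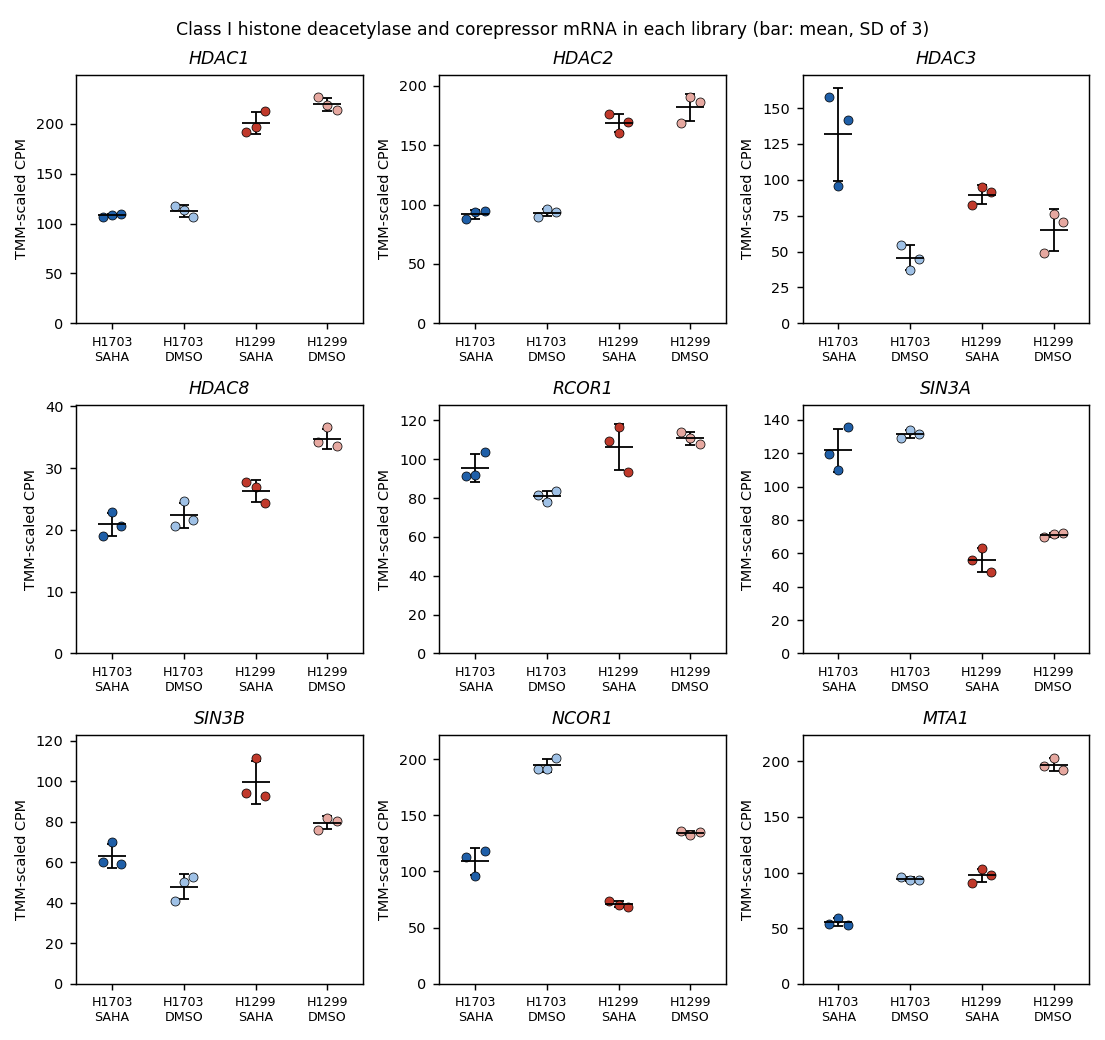
TMM-scaled CPM (vertical axes, linear and from 0) of the 9 genes in every library, by group; points are libraries, and bars the mean with its SD of 3. NCOR1 and MTA1 sit lower with SAHA in both lines, HDAC3 sits higher with SAHA in H1703, and HDAC1 and HDAC2 show the same step between the lines.

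HDAC1 had 107, 109 and 109 CPM in H1703 with SAHA, against 118, 114 and 106 CPM with DMSO. The groups overlap, and the difference of -0.04 ± 0.07 was not past the threshold (adjusted p = 0.651), with a 95% interval of -0.20 to 0.12. In H1299, HDAC1 had 192, 197 and 213 CPM with SAHA against 227, 219 and 214 CPM with DMSO. Every SAHA library lies below every DMSO library there, by a small margin, and the difference was -0.18 ± 0.08 (adjusted p = 0.0568); without SAHA replicate 3 it was -0.24 (adjusted p = 0.0236). HDAC2, its paralogue, gave almost the same picture. It had 87.8, 93.4 and 94.3 CPM in H1703 with SAHA against 89.9, 96.4 and 93.7 CPM with DMSO, a difference of -0.01 ± 0.07 (adjusted p = 0.953, 95% interval -0.17 to 0.16). In H1299 it had 176, 161 and 170 CPM with SAHA against 169, 191 and 187 CPM with DMSO, a difference of -0.16 ± 0.08 (adjusted p = 0.105). The 95% intervals in H1299 were -0.36 to -0.01 for HDAC1 and -0.35 to 0.02 for HDAC2.

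HDAC3 was the enzyme whose mRNA rose. In H1703 it had 158, 95.5 and 142 CPM with SAHA, against 54.6, 37.1 and 45.1 CPM with DMSO. All SAHA libraries lie above all DMSO libraries, although SAHA replicate 2 is well below the other two. The log2 difference was 1.55 ± 0.23 (adjusted p = 0.00103), or 2.92-fold, and it was 1.39 to 1.73 when each library was left out in turn. In H1299, HDAC3 had 82.3, 94.9 and 91.4 CPM with SAHA against 48.7, 76.1 and 70.5 CPM with DMSO. The groups again do not overlap, with DMSO replicate 1 the lowest, and the difference of 0.41 ± 0.16 missed the threshold (adjusted p = 0.0521). With the replicate number as a block it was 0.43 (adjusted p = 0.0122), with DESeq2 0.42 (adjusted p = 0.0267), with RLE scaling 0.42 (adjusted p = 0.0478) and without DMSO replicate 2 it was 0.51 (adjusted p = 0.0246). The other 8 of the 12 alternatives left it uncalled. Over all 12 the H1299 value ranged from 0.21 to 0.51, with adjusted p up to 0.148. The coefficient of variation of HDAC3 between replicates, at 24.5% in H1703 with SAHA, 19.2% in H1703 with DMSO and 22.3% in H1299 with DMSO, was the highest of the 9 members in those 3 groups. In H1299 with SAHA it was 7.28%, below the 12.8% of SIN3A, which no other member exceeded in any group.

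HDAC8, the X-linked enzyme that acts on cohesin, fell in H1299. In H1703 it had 19.1, 22.9 and 20.7 CPM with SAHA against 20.7, 24.7 and 21.7 CPM with DMSO. These groups overlap, and the difference was -0.08 ± 0.12 (adjusted p = 0.571). In H1299 it had 27.8, 26.9 and 24.4 CPM with SAHA against 34.2, 36.6 and 33.5 CPM with DMSO; the groups are apart, and it fell by 0.45 ± 0.10 on the log2 scale (adjusted p = 0.00334).

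NCOR1, the scaffold that binds and activates HDAC3, fell in both lines. It had 113, 95.7 and 118 CPM in H1703 with SAHA against 191, 191 and 201 CPM with DMSO, a fall of 0.82 ± 0.09 on the log2 scale (adjusted p = 3.5e-05). In H1299 it had 74.0, 70.0 and 68.5 CPM with SAHA against 136, 133 and 135 CPM with DMSO. There it fell by 0.98 ± 0.08 (adjusted p = 5.7e-06). Every SAHA library lies below every DMSO library in each line. NCOR1 had 1697, 1646 and 1796 counts in H1703 with SAHA against 2987, 3276 and 2928 with DMSO. In H1299 it had 1238, 1102 and 1169 against 2245, 2241 and 2392. The overlapping TTC19 had 602, 741 and 535 counts against 580, 687 and 672 in H1703. In H1299 TTC19 had 319, 353 and 533 against 383, 394 and 378. PIGL had 180, 184 and 173 against 161, 200 and 147 in H1703. In H1299 PIGL had 192, 174 and 203 against 140, 201 and 175. The part of shared reads in the NCOR1 values was not tested. HDAC3 and NCOR1, partners in 1 complex, thus differed in direction in H1703.

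MTA1, the NuRD scaffold, had 53.9, 59.5 and 53.2 CPM in H1703 with SAHA against 95.9, 92.9 and 93.2 CPM with DMSO. It fell there by 0.74 ± 0.08 on the log2 scale (adjusted p = 2.2e-05). In H1299 it had 90.9, 103 and 98.0 CPM with SAHA against 195, 203 and 193 CPM with DMSO, a fall of 1.07 ± 0.08 (adjusted p = 4.7e-06). The groups lie far apart in both lines.

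The SIN3 scaffolds moved in opposite directions in H1299. In H1703, SIN3A had 120, 110 and 136 CPM with SAHA against 129, 134 and 132 CPM with DMSO, and the overlapping groups differed by -0.09 ± 0.09 (adjusted p = 0.375); without SAHA replicate 3, the highest library, the value was -0.18 (adjusted p = 0.043). SIN3B had 59.95, 70.1 and 59.4 CPM in H1703 with SAHA against 41.0, 50.2 and 52.7 CPM with DMSO. It rose there by 0.41 ± 0.12 (adjusted p = 0.01), with no overlap. In H1299, SIN3A had 56.0, 63.2 and 48.8 CPM with SAHA against 69.7, 71.6 and 72.2 CPM with DMSO, a fall of 0.40 ± 0.11 on the log2 scale (adjusted p = 0.00872). SIN3B had 94.1, 112 and 92.7 CPM in H1299 with SAHA against 75.9, 82.1 and 80.4 CPM with DMSO, and rose by 0.27 ± 0.10 (adjusted p = 0.0332). The groups of each gene do not overlap, yet the SIN3B call is weak. It was 0.21 without DMSO replicate 1 (adjusted p = 0.133), 0.27 without DMSO replicate 2 (adjusted p = 0.0654), 0.25 without DMSO replicate 3 (adjusted p = 0.0882) and 0.17 without SAHA replicate 2 (adjusted p = 0.108).

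RCOR1, the CoREST scaffold, had 91.3, 91.8 and 104 CPM in H1703 with SAHA against 81.3, 78.2 and 83.8 CPM with DMSO. The groups are apart, and it rose by 0.26 ± 0.08 on the log2 scale (adjusted p = 0.0198). The call did not hold without DMSO replicate 1 (0.24, adjusted p = 0.0661) or DMSO replicate 2 (0.22, adjusted p = 0.0892). In H1299, RCOR1 had 109, 116 and 93.5 CPM with SAHA against 114, 111 and 108 CPM with DMSO, overlapping groups with a difference of -0.11 ± 0.10 (adjusted p = 0.333).

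**Figure D2:**
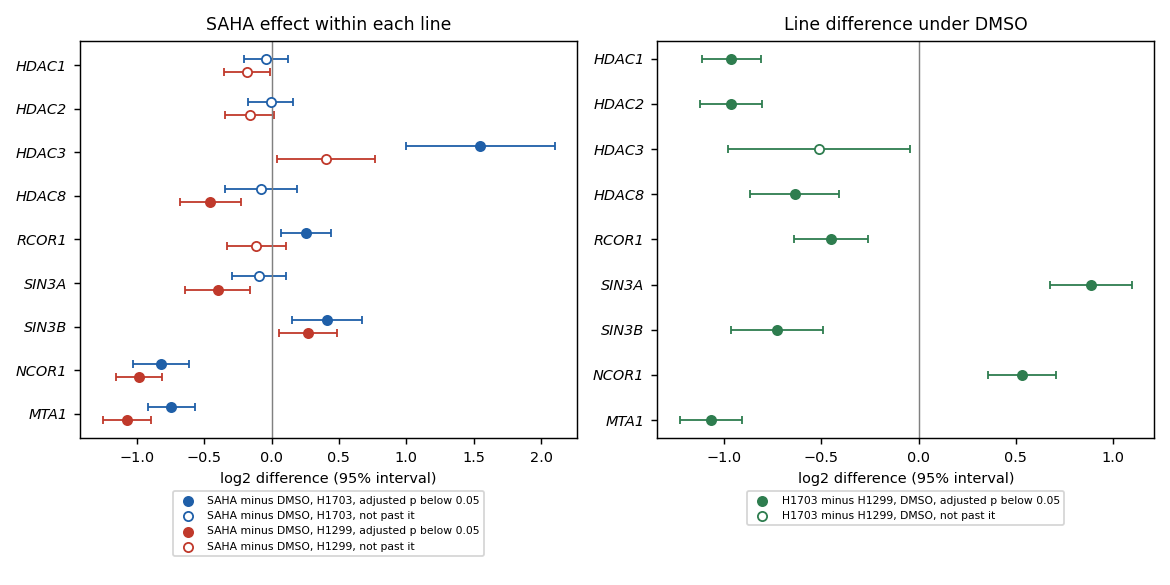
Log2 differences (horizontal axes) with 95% intervals for the 9 genes: SAHA minus DMSO within each line on the left, H1703 minus H1299 under DMSO on the right. Filled points passed an adjusted p of 0.05 and open points did not; the widest interval is that of HDAC3 in each comparison, and NCOR1 and MTA1 lie below 0 in both lines on the left.

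The difference of the SAHA effect between the lines was tested as an interaction, the SAHA effect in H1703 minus that in H1299, over all 12 libraries. The dose in each line is not stated, so this difference may include one of dose. HDAC3 was the 1 member of 9 called, where 34.9% of 19105 genes were called, 13.7% higher and 21.2% lower: its effect was 1.07 ± 0.30 larger on the log2 scale in H1703 (adjusted p = 0.0164). The size ranged from 0.92 to 1.25 over the alternatives, and with no filter on low counts the adjusted p was 0.0524. MTA1 (0.26 ± 0.11, adjusted p = 0.0732) and RCOR1 (0.30 ± 0.13, adjusted p = 0.0854) missed the threshold, and both passed it under RLE scaling, with DESeq2, without mitochondrial genes, with TMM factors computed within each line, and without SAHA replicate 2 of H1299. The other 13 of 18 alternatives left each gene uncalled. MTA1 went as low as 0.20 (adjusted p up to 0.184) and RCOR1 as low as 0.21 (adjusted p up to 0.188). The median over all genes was -0.09 in the interaction as scaled here, so the values of MTA1 and RCOR1 are larger when taken relative to it. HDAC8 differed by 0.30 ± 0.15 (adjusted p = 0.142) and SIN3A by 0.23 ± 0.14 (adjusted p = 0.217). For the remaining 4 members the difference was small: 0.09 ± 0.12 for NCOR1, 0.09 ± 0.10 for HDAC2, 0.07 ± 0.10 for HDAC1 and 0.07 ± 0.15 for SIN3B, with adjusted p from 0.575 to 0.774. The interval for HDAC1 was -0.14 to 0.29 and that for NCOR1 was -0.16 to 0.34. The fall of HDAC8 and SIN3A past the threshold in H1299 alone is therefore not shown to be particular to that line.

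Under DMSO the lines differed in nearly every member. Of the 9, 8 were called between H1703 and H1299, 2 higher in H1703 (SIN3A and NCOR1) and 6 lower, where 66.5% of 19105 genes were called, 34.3% higher and 32.2% lower. HDAC1 averaged 113 ± 5.77 CPM in H1703 and 220 ± 6.71 CPM in H1299 (SD, n = 3 each), a log2 difference of -0.96 ± 0.07 (adjusted p = 2.6e-08). HDAC2 averaged 93.3 ± 3.27 CPM in H1703 and 182 ± 11.5 CPM in H1299, again -0.96 ± 0.07 (adjusted p = 4.4e-08). Both paralogues were thus lower in H1703 by the same log2 value. HDAC8 was lower in H1703 by 0.64 ± 0.11 (adjusted p = 0.00011), SIN3B by 0.73 ± 0.11 (adjusted p = 4.5e-05) and RCOR1 by 0.45 ± 0.09 (adjusted p = 0.00048). MTA1 averaged 94.0 ± 1.65 CPM in H1703 and 197 ± 5.62 CPM in H1299, a difference of -1.07 ± 0.07 (adjusted p = 1.6e-08), the 1 called member that differed 2-fold or more, as 37.4% of all genes did. SIN3A averaged 132 ± 2.32 CPM in H1703 and 71.1 ± 1.29 CPM in H1299 and was higher in H1703 by 0.89 ± 0.10 (adjusted p = 2.1e-06). NCOR1 averaged 194 ± 6.04 CPM in H1703 and 135 ± 1.78 CPM in H1299, higher by 0.53 ± 0.08 (adjusted p = 4.9e-05). HDAC3 differed by -0.51 ± 0.21 (adjusted p = 0.0512). Over the 18 alternatives it ranged from -0.69 to -0.38, adjusted p reached 0.177, and 11 left it uncalled. It passed the threshold under RLE scaling (-0.54, adjusted p = 0.0433), with DESeq2 (-0.54, adjusted p = 0.0184), without mitochondrial genes (-0.59, adjusted p = 0.0294), without H1299 DMSO replicate 1 (-0.69, adjusted p = 0.00981) and without H1703 DMSO replicate 1 (-0.66, adjusted p = 0.0276). Through the shared spread it also passed without H1703 SAHA replicate 1 (-0.51, adjusted p = 0.0462) or 2 (-0.51, adjusted p = 0.0209).

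Ratios of counts within a library do not depend on scaling between libraries, and they separate the gene pairs. The log2 ratio of HDAC1 to HDAC2 was 0.24 ± 0.04 in H1703 with SAHA, 0.27 ± 0.11 in H1703 with DMSO, 0.25 ± 0.11 in H1299 with SAHA and 0.27 ± 0.13 in H1299 with DMSO (SD, n = 3 each), with overlapping groups throughout. The log2 ratio of SIN3A to SIN3B was 1.00, 0.65 and 1.19 in H1703 with SAHA against 1.66, 1.42 and 1.32 with DMSO. In H1299 it was -0.75, -0.82 and -0.92 with SAHA against -0.12, -0.20 and -0.16 with DMSO. It was lower with SAHA in both lines without overlap, and all H1703 libraries lie above all H1299 libraries. An exact permutation test of 3 against 3 cannot go below 0.1, so these ratios are given without a test.

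Another 2 pairs were added after the values were seen. The log2 ratio of HDAC3 to HDAC1 was 0.56, -0.19 and 0.38 in H1703 with SAHA against -1.11, -1.62 and -1.24 with DMSO. In H1299 it was -1.22, -1.05 and -1.22 with SAHA against -2.22, -1.52 and -1.60 with DMSO. The ratio was higher with SAHA without overlap in each line. MTA1 to MTA2, both NuRD scaffolds, had a log2 ratio of -0.78 ± 0.13 in H1703 with SAHA and -0.74 ± 0.09 with DMSO, overlapping groups, but -0.27 ± 0.05 in H1299 with SAHA and 0.38 ± 0.05 with DMSO. The H1299 groups do not overlap.

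**Figure D3:**
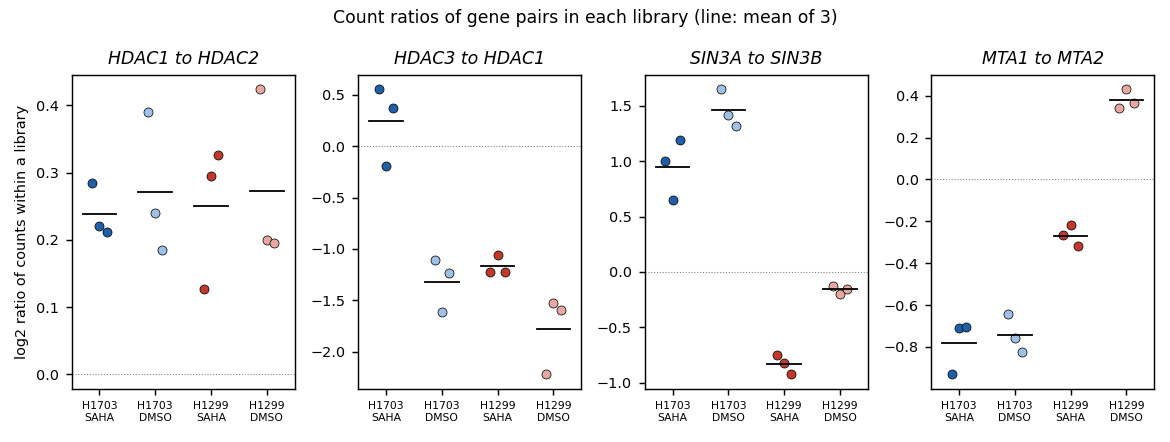
Log2 ratios of raw counts of 4 gene pairs within each library (vertical axes, a scale per panel), by group; points are libraries and lines the mean of 3. The SIN3A to SIN3B panel separates all 4 groups, whereas the HDAC1 to HDAC2 panel spans only 0.13 to 0.42 over all 12 libraries.

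Levels can be compared between genes only per length. By deposited FPKM, HDAC1 was the highest of the 9 in every group, at 15.01 ± 0.0400 FPKM in H1703 with SAHA, 16.6 ± 0.747 in H1703 with DMSO, 34.1 ± 1.07 in H1299 with SAHA and 37.0 ± 1.16 in H1299 with DMSO. On the same scale HDAC8 was the lowest in every group, at 1.77 ± 0.153 FPKM in H1703 with SAHA, 2.01 ± 0.177 in H1703 with DMSO, 2.75 ± 0.250 in H1299 with SAHA and 3.58 ± 0.120 in H1299 with DMSO, although in H1299 with SAHA its range overlapped that of NCOR1 above it. In H1703 with SAHA, HDAC3 (14.1 ± 3.53 FPKM) overlapped both HDAC1 above it and RCOR1 (12.8 ± 0.891) below it, while HDAC1 and RCOR1 did not overlap each other. Then came SIN3A (6.15 ± 0.639), and MTA1, HDAC2, SIN3B and NCOR1 followed between 3.64 and 4.31, each overlapping the next. In H1703 with DMSO the order was HDAC1, RCOR1 (11.6 ± 0.495), MTA1 (7.76 ± 0.146), SIN3A (7.07 ± 0.117), NCOR1 (6.90 ± 0.273), HDAC3 (5.19 ± 1.00), HDAC2 (4.55 ± 0.154), SIN3B (3.11 ± 0.411) and HDAC8, with overlap only between SIN3A and NCOR1 and between HDAC3 and HDAC2. In H1299 with SAHA it was HDAC1, RCOR1 (17.6 ± 2.22), HDAC3 (11.8 ± 0.690), HDAC2 (9.53 ± 0.586), MTA1 (9.28 ± 0.492), SIN3B (7.46 ± 0.819), SIN3A (3.48 ± 0.487), NCOR1 (2.91 ± 0.188) and HDAC8, where HDAC2 and MTA1, SIN3A and NCOR1, and NCOR1 and HDAC8 overlapped. In H1299 with DMSO it was HDAC1, MTA1 (18.6 ± 0.284), RCOR1 (18.1 ± 0.512), HDAC2 (10.2 ± 0.597), HDAC3 (8.45 ± 1.84), SIN3B (5.89 ± 0.208), NCOR1 (5.46 ± 0.141), SIN3A (4.37 ± 0.0974) and HDAC8, where MTA1 overlapped RCOR1 and HDAC2 overlapped HDAC3.

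**Figure D4:**
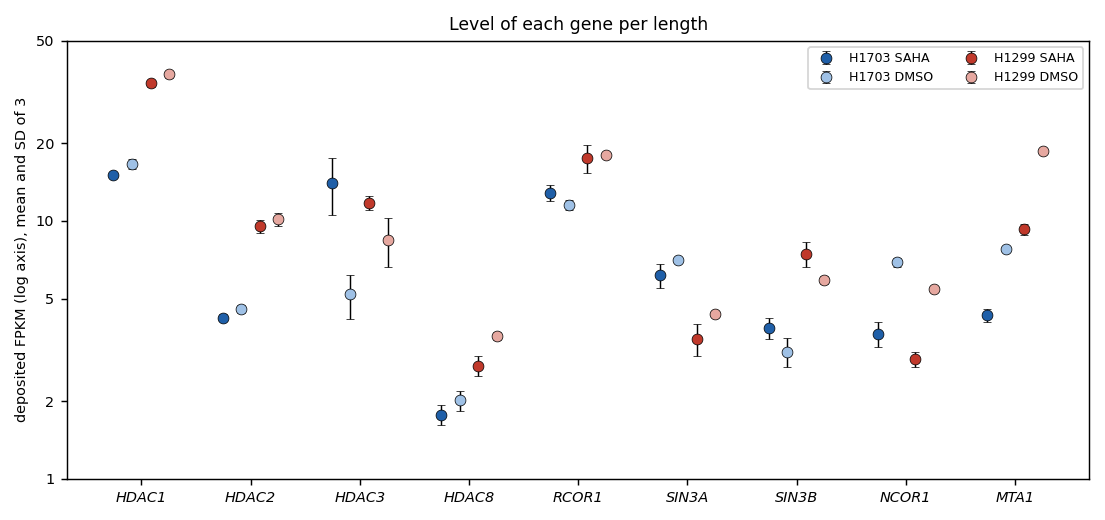
Deposited FPKM (vertical axis, log scale) of the 9 genes in each group; points are means and bars the SD of 3 libraries. HDAC1 is the highest point of its group in all 4 groups and HDAC8 the lowest, and the order between them depends on the group.

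The length behind the deposited FPKM is longer than the main transcript of each gene, which moves the order. It came to 6.42 kb for HDAC1, where the MANE Select transcript in GENCODE 44 has 2.12 kb, and to 19.4 kb for HDAC2, where that transcript has 9.74 kb. For HDAC3 the length was 8.32 kb against 1.93 kb, for HDAC8 10.5 kb against 1.75 kb and for NCOR1 26.6 kb against 10.7 kb. Per kb of the MANE Select transcript, 28 of the 36 ranks (9 genes in 4 groups) changed. HDAC3 then came first in H1703 with SAHA, at 68.1 ± 16.7 CPM per kb, with HDAC1 at 51.2 ± 0.583 and overlapping ranges, while HDAC1 stayed first in the other 3 groups. HDAC8 was not the lowest in any group on this scale: it ranked 4 of 9 in H1299 with DMSO, at 19.8 ± 0.928 CPM per kb, overlapping RCOR1 below it, and 7 of 9 in the other 3 groups. On this scale HDAC3 made up 47.9 ± 7.09% of the summed level of the 4 enzymes in H1703 with SAHA and 23.7 ± 3.60% with DMSO, and 26.7 ± 1.41% in H1299 with SAHA and 19.1 ± 3.62% with DMSO. HDAC1 made up 36.7 ± 4.40% in H1703 with SAHA and 53.7 ± 1.53% with DMSO, and 54.6 ± 1.36% in H1299 with SAHA and 59.1 ± 3.73% with DMSO. By deposited FPKM the HDAC3 share was 39.8 ± 6.61% in H1703 with SAHA and 18.2 ± 2.89% with DMSO, and 20.2 ± 1.21% in H1299 with SAHA and 14.2 ± 2.82% with DMSO. Groups within a line do not overlap in the HDAC3 share on either scale.

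The genes most like each member were found by the root mean square difference of centred mean log2 CPM over the 4 groups, among 10258 protein-coding genes whose mean log2 CPM reached 3. HDAC2 was the second nearest of all to HDAC1, at 0.0145, and HDAC1 the second nearest to HDAC2; ATG4D was nearest to both, at 0.0114 from HDAC1 and 0.0090 from HDAC2. No other pair of members came closer than 0.191 (HDAC8 and RCOR1), and MTA1 and HDAC3 were farthest apart at 1.07. HDAC3 was nearest to CXADR (0.0365) and PTTG1IP (0.0600), MTA1 to CBFB (0.0451) and PIK3CA (0.0513), and NCOR1 to DPP3 (0.0283) and CDC27 (0.0344). SIN3A was nearest to RDH14 (0.0246) and SSH2 (0.0281), and SIN3B to PTPN21 (0.0226) and MTCH1 (0.0237). For HDAC8 the nearest were LSM6 (0.0185) and RNF19B (0.0231), and for RCOR1 they were ANGEL1 (0.0108) and LRWD1 (0.0228). With 4 group means a profile has few ways to differ, so a small value describes these groups only.

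Among the NuRD genes around MTA1, more fell than rose with SAHA. Here and in the lists that follow, the class I enzymes themselves are not counted. In H1703, 7 of the 13 NuRD genes tested, MTA1 included, fell and 1 rose, where 32.6% of all genes fell and 34.7% rose. In H1299, 10 of 13 fell and 1 rose, where 30.4% of all genes fell and 33.3% rose. The median log2 difference of the list was -0.70 in H1703 and -0.48 in H1299. CHD3, a remodelling ATPase of the complex, averaged 39.2 ± 2.06 CPM in H1703 with SAHA and 310 ± 11.7 CPM with DMSO, and fell by 2.96 ± 0.08 (adjusted p = 8e-09). In H1299 it averaged 34.7 ± 4.02 CPM with SAHA and 159 ± 4.24 CPM with DMSO, and fell by 2.25 ± 0.10 (adjusted p = 3.2e-07). Its paralogue CHD4, named after its values were seen, was not past the threshold in either line, at 0.05 ± 0.08 in H1703 (adjusted p = 0.558) and 0.19 ± 0.08 in H1299 (adjusted p = 0.0632); the H1299 value passed with RLE scaling (0.21, adjusted p = 0.0489), in 1 fit over 12 libraries (0.25, adjusted p = 0.0115) and without SAHA replicate 1 (0.22, adjusted p = 0.0442). CDK2AP1, a small subunit, fell by 1.58 ± 0.16 in H1703 (adjusted p = 4.3e-05) and by 2.46 ± 0.10 in H1299 (adjusted p = 1.7e-07). The paralogues of MTA1 fell as well: MTA2 by 0.70 ± 0.09 in H1703 (adjusted p = 6.2e-05) and 0.43 ± 0.08 in H1299 (adjusted p = 0.00102), and MTA3 by 1.72 ± 0.10 in H1703 (adjusted p = 3.4e-07) and 0.63 ± 0.10 in H1299 (adjusted p = 0.00039). In H1703 the single riser was GATAD2A (0.23 ± 0.09, adjusted p = 0.0387), a call lost with the replicate block (adjusted p = 0.0664), with no filter on low counts (adjusted p = 0.0833), in 1 fit over 12 libraries (adjusted p = 0.0559) and without any of the 3 DMSO libraries or SAHA replicate 1 (adjusted p 0.0597 to 0.155). In H1299 GATAD2A fell by 0.33 ± 0.09 (adjusted p = 0.0119). In H1299 the single riser was CHD5 (1.35 ± 0.20, adjusted p = 0.00031), at 14.4 ± 2.84 CPM with SAHA and 5.41 ± 1.15 CPM with DMSO.

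The SIN3 genes were mixed. Of 15 tested in H1703, SIN3A and SIN3B included, 5 rose and 3 fell (median 0.02), where 34.7% of all genes rose and 32.6% fell. In H1299, 4 rose and 6 fell (median -0.02), where 33.3% of all genes rose and 30.4% fell. RBBP4 and RBBP7, histone-binding subunits, belong to both the SIN3 and the NuRD list. BRMS1L, a subunit related to the metastasis suppressor BRMS1, fell by 1.58 ± 0.31 in H1703 (adjusted p = 0.00257) and by 1.69 ± 0.20 in H1299 (adjusted p = 8.3e-05). ING1, which reads histone methylation, rose by 1.03 ± 0.11 in H1703 (adjusted p = 3.1e-05) and by 0.57 ± 0.19 in H1299 (adjusted p = 0.0264); the H1299 call was lost without DMSO replicate 1 or 3 or SAHA replicate 1 or 3 (0.38 to 0.57, adjusted p 0.0724 to 0.0948). SAP30L, the paralogue of the subunit SAP30, averaged 88.7 ± 0.537 CPM in H1703 with SAHA and 41.3 ± 0.999 CPM with DMSO and rose by 1.12 ± 0.07 (adjusted p = 1e-06). In H1299 it stood at 0.24 ± 0.10 (adjusted p = 0.058), past the threshold with RLE scaling (0.26, adjusted p = 0.0462), in 1 fit over 12 libraries (0.30, adjusted p = 0.00664) and without SAHA replicate 3 (0.29, adjusted p = 0.0338).

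Of 10 CoREST genes tested, RCOR1 included, 2 rose and 5 fell in H1703 (median -0.41), where 34.7% of all genes rose and 32.6% fell. In H1299, 1 rose and 3 fell (median -0.29), where 33.3% of all genes rose and 30.4% fell, so the count of genes that fell there is at the background. HMG20B, an HMG-box subunit, rose by 0.59 ± 0.17 in H1703 (adjusted p = 0.0138), where without DMSO replicate 2 the value was 0.55 (adjusted p = 0.05), and by 0.26 ± 0.09 in H1299 (adjusted p = 0.0321), a call lost in 1 fit over 12 libraries (adjusted p = 0.0668) and without any of the 3 DMSO libraries or SAHA replicate 1 (0.17 to 0.25, adjusted p 0.0652 to 0.135). ZMYM2, a zinc finger partner, fell by 1.02 ± 0.11 in H1703 (adjusted p = 2.8e-05) and by 1.18 ± 0.20 in H1299 (adjusted p = 0.00106). Its paralogue ZMYM3 averaged 30.5 ± 2.49 CPM in H1703 with SAHA and 97.4 ± 5.66 CPM with DMSO, and fell by 1.66 ± 0.09 (adjusted p = 3.7e-07), with a fall of 0.68 ± 0.08 in H1299 (adjusted p = 8.9e-05). RCOR2, at 1.53 ± 0.246 CPM in H1703 with SAHA and 4.47 ± 0.476 CPM with DMSO, fell there by 1.52 ± 0.22 (adjusted p = 0.00019), whereas in H1299 its difference was 0.45 ± 0.19 (adjusted p = 0.0612; 0.50 with adjusted p = 0.0331 in 1 fit over 12 libraries). RCOR3 was not past the threshold, at 0.13 ± 0.16 in H1703 (adjusted p = 0.494) and -0.24 ± 0.14 in H1299 (adjusted p = 0.154). The demethylase KDM1A, named after its values were seen, stood at 0.06 ± 0.07 in H1703 (adjusted p = 0.466) and 0.03 ± 0.08 in H1299 (adjusted p = 0.797).

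Among 5 NCoR genes, NCOR1 included, 2 rose and NCOR1 fell in each line. HDAC3, the enzyme of the complex, is not among these 5 and rose past the threshold in H1703 only. Of all genes, 34.7% rose and 32.6% fell in H1703, and 33.3% rose and 30.4% fell in H1299. The median of the NCoR genes was 0.13 in H1703 and -0.08 in H1299. CORO2A, a coronin found with this complex, averaged 25.0 ± 1.24 CPM in H1703 with SAHA and 3.39 ± 1.28 CPM with DMSO, and rose by 2.90 ± 0.23 (adjusted p = 5.2e-06). In H1299 it averaged 49.6 ± 2.44 CPM with SAHA and 5.36 ± 0.203 CPM with DMSO, and rose by 3.15 ± 0.11 (adjusted p = 1.3e-07). GPS2, the other riser in both lines and named after its values were seen, rose by 0.71 in H1703 and 1.16 in H1299 on the log2 scale. In the MiDAC list 3 of 4 genes were tested. TRERF1, a scaffold of that complex, fell by 1.25 ± 0.11 in H1703 (adjusted p = 7.7e-06) and by 0.56 ± 0.13 in H1299 (adjusted p = 0.00341). MIDEAS, a related scaffold listed as ELMSAN1, rose by 0.87 ± 0.09 in H1703 (adjusted p = 1.5e-05) and stood at 0.31 ± 0.14 in H1299 (adjusted p = 0.0717), past the threshold there in 1 fit over 12 libraries (0.37, adjusted p = 0.0159) and without SAHA replicate 3 (0.42, adjusted p = 0.0181).

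**Figure D5:**
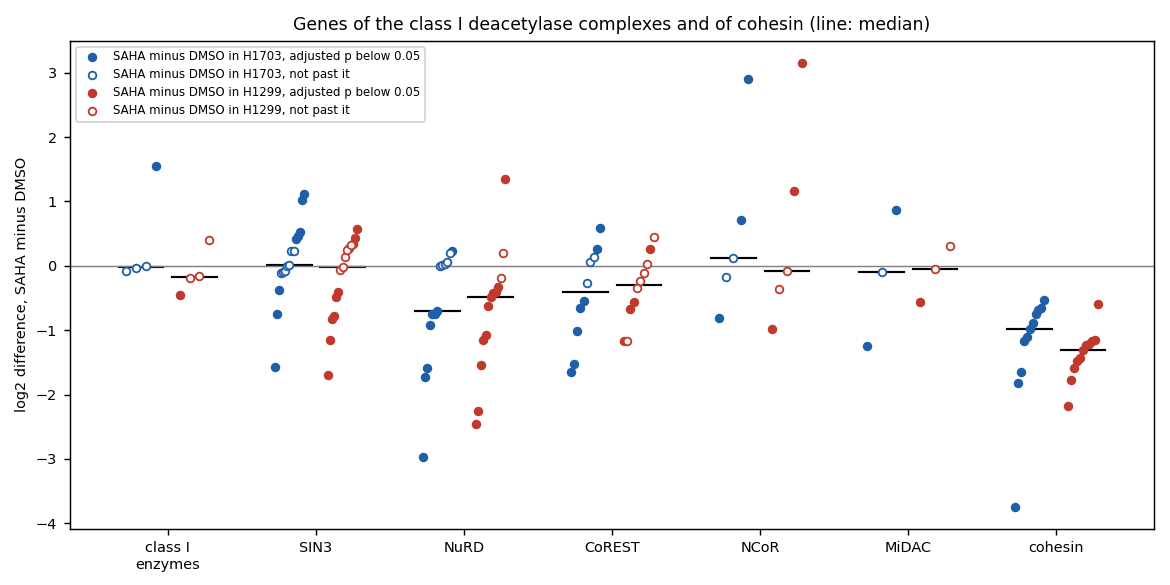
Log2 difference, SAHA minus DMSO (vertical axis), of each tested gene of the class I complexes and of cohesin, the 9 described genes included; filled points passed an adjusted p of 0.05, open points did not, and black lines are medians. All 11 cohesin genes lie below 0 in both lines, the NuRD medians are -0.70 in H1703 and -0.48 in H1299, and the SIN3 points spread around 0.

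Cohesin genes, which hold the substrate of HDAC8, were lower throughout. All 11 fell in each line, where 32.6% of all genes fell in H1703 and 30.4% in H1299. The median log2 difference of the cohesin genes was -0.98 in H1703 and -1.31 in H1299. STAG2, a core subunit, averaged 30.8 ± 1.95 CPM in H1703 with SAHA and 111 ± 4.72 CPM with DMSO, and fell by 1.83 ± 0.09 (adjusted p = 1.3e-07). In H1299 STAG2 averaged 28.5 ± 5.37 CPM with SAHA and 124 ± 6.32 CPM with DMSO, and fell by 2.18 ± 0.14 (adjusted p = 1.7e-06). ESCO2, the acetyltransferase that modifies SMC3 in S phase, fell by 3.74 ± 0.14 in H1703 (adjusted p = 3e-08) and by 1.44 ± 0.15 in H1299 (adjusted p = 4e-05). All 6 proliferation genes fell beside them in both lines, with medians of -3.10 in H1703 and -1.59 in H1299; the part of that fall in the cohesin values was not tested.

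Neuronal genes known as targets of REST, the repressor that recruits RCOR1 and SIN3A, were higher with SAHA. Of 11 tested, 9 rose in H1703 (median 3.94), where 34.7% of all genes rose, and 11 in H1299 (median 3.82), where 33.3% did. The rise of such neuronal genes in these libraries was known when the list was made. L1CAM, a neural adhesion molecule, had 248, 199 and 208 CPM in H1703 with SAHA against 13.2, 14.9 and 15.3 CPM with DMSO, and rose by 3.94 ± 0.12 (adjusted p = 1.2e-08). In H1299 it had 74.9, 73.0 and 63.1 CPM with SAHA against 0.302, 0.355 and 0.170 CPM with DMSO. CHGA, a granin of secretory vesicles, had 30.4, 34.1 and 27.7 CPM in H1703 with SAHA against 0.766, 0.350 and 0.688 CPM with DMSO. REST itself, named after its values were seen, fell by 0.55 ± 0.11 in H1703 (adjusted p = 0.00135), a call lost in 1 fit over 12 libraries (-0.57, adjusted p = 0.155). In H1299 it stood at -1.16 ± 0.43 (adjusted p = 0.0624), and passed with DESeq2 (-1.15, adjusted p = 0.0319), in 1 fit over 12 libraries (-1.11, adjusted p = 0.0145) and without DMSO replicate 3 (-1.44, adjusted p = 0.0301). CDKN1A, a cell cycle inhibitor commonly induced by deacetylase inhibitors, rose by 1.73 ± 0.07 in H1703 (adjusted p = 5.8e-08) and by 2.06 ± 0.10 in H1299 (adjusted p = 3.8e-07).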

How the data were processed

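Per the labels, polyadenylated RNA of 12 libraries was sequenced as paired ends; one passage names a directional kit and another an un-stranded library. The submitters' processing notes list the build GRCh38 and the tools HISAT2 2.1.0, StringTie 1.3.3b, edgeR 3.30.3, fastp and FastQC 0.11.9, without roles. The authors deposited a table for each line with raw counts, which are whole numbers that are not normalized, and FPKM per gene and library, per the file headers. The deposited FPKM equals the count over the column total and a single length per gene, within 1% in 100.0% of 304680 values checked. Columns marked NC were read as the DMSO group of their line. Totals of 14.4M to 19.4M counts set the precision, and replicate pairs differed by more than sampling noise (chi-square over its degrees of freedom 9.96 to 22.3).

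The test was the robust quasi-likelihood fit of edgeR 4.0.16 (R 4.3.3) on the counts, with TMM scaling, after filterByExpr with a minimum count of 10 and a minimum total of 15. P-values were adjusted by Benjamini-Hochberg over every gene that passed. Each line was fitted alone; the interaction and the line difference came from 1 fit over 12 libraries. The SE is the log2 difference over the root of the F statistic. CPM use TMM factors over 12 libraries, and log2 CPM a prior count of 2. The fits were tested on simulated data. The labels tag the replicate number as a batch, so fits with it as a block were run. Deviations of same-numbered libraries from their group means correlated at -0.07 to 0.03 across genes, and those of different-numbered libraries at -0.05 to 0.11. Alternatives were RLE scaling, DESeq2 1.42.0, no filter, no mitochondrial genes, the block, other sample sets and each library left out; the MANE Select length (GENCODE 44) was added after seeing the data. Members, gene lists and naming rule were chosen with earlier results of these data known. Named beside the members are their paralogues, the largest called rise and fall of each list per line among genes whose mean log2 CPM reached 1, single exceptions to a list's direction, and the 2 genes nearest each member. A few genes of the lists and of the rule are not reported here and are left out of the list counts.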

Additional observations from a re-analysis of the deposited data

Results flagged for a closer look

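The SAHA effect differed between the lines, by the interaction test of edgeR (H1703 minus H1299, adjusted over all genes), for 1 of the 9 members and for 14 of the other genes whose SAHA effect is given. Over all 19105 genes tested, 34.9% were called. Line and dose cannot be told apart in this test, since the labels do not give the dose of either line. Many of the 14 were named for the largest called SAHA change of their list, so their number is not comparable with that share. HDAC3 had the larger effect in H1703, by 1.07 ± 0.30 on the log2 scale (adjusted p = 0.0164). Among paralogues of members, the difference was -2.04 for RCOR2 (adjusted p = 7.9e-05), -1.17 for MTA3 (adjusted p = 7.1e-06) and -0.35 for MTA2 (adjusted p = 0.0278). Among genes of the NuRD list it was -0.79 for CHD3 (adjusted p = 0.00019), -1.23 for CHD5 (adjusted p = 0.0112), 0.81 for CDK2AP1 (adjusted p = 0.0052) and 0.48 for GATAD2A (adjusted p = 0.00875).

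In the SIN3, CoREST and MiDAC lists the difference was 0.81 for SAP30L (adjusted p = 0.00012), -1.05 for ZMYM3 (adjusted p = 1.2e-05), -0.76 for TRERF1 (adjusted p = 0.00275) and 0.48 for ELMSAN1 (adjusted p = 0.0388). ESCO2 of the cohesin list differed by -2.38 (adjusted p = 1.4e-06). L1CAM of the REST target list differed by -4.04 (adjusted p = 3.9e-08), with 3 to 6 counts per library in H1299 with DMSO. CDKN1A, a cell cycle inhibitor, differed by -0.40 (adjusted p = 0.0152).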

How the results depend on the processing

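Of the 36 member values (9 genes in 4 comparisons), 25 kept their direction and their side of the threshold under every alternative run, 3 lost a call somewhere, 6 gained one and 2 changed sign. The number of members called stayed between 4 and 6 in each line and between 8 and 9 for the line difference. In the interaction 3 members were called (HDAC3, MTA1 and RCOR1) under RLE scaling, with DESeq2, without mitochondrial genes and with TMM within each line, 0 with no filter, and 1 to 3 when each library was left out (3 without H1299 SAHA replicate 2). RCOR1 was then 0.36 to 0.38 and MTA1 0.30 to 0.35. The sign changes were of values near 0. HDAC2 in H1703 was 0.0107 under RLE scaling and 0.0108 with DESeq2, and -0.0452 to 0.022 when each library was left out. SIN3B in the interaction was -0.0286 to 0.161, RCOR3 in H1703 was -0.0132 to 0.249 and KDM1A in H1299 was -0.0329 to 0.0396 when each was left out. The order of levels changed at 28 of 36 ranks over the MANE Select length. With TMM-scaled counts over the table's length it changed at 0 of 36. Little change was possible there, since that scaling moves all genes of a library alike.

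With the replicate number as a block, HDAC3 in H1299 gained a call (0.43, adjusted p = 0.0122). The block ended the call of GATAD2A in H1703 (0.22, adjusted p = 0.0664) and the interaction calls of MTA2 (-0.35, adjusted p = 0.0508) and ELMSAN1 (0.49, adjusted p = 0.055), and changed no other call among the genes whose SAHA effect is given. The interaction of MTA2 also missed the threshold under RLE scaling, with DESeq2, with no filter, without mitochondrial genes, with TMM within each line and without each of 7 libraries (adjusted p up to 0.0864), and that of ELMSAN1 without each of 7 libraries (adjusted p up to 0.102). The causes were not tested.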
